A study of Caenorhabditis elegans with 2 samples.

Results

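Aminoacyl-tRNA synthetases are the enzymes that load each amino acid onto its tRNA, and their genes in Caenorhabditis elegans are named by the 1-letter code of the amino acid, such as ears-2 for a glutamate enzyme. The genes described here are all protein-coding genes of the Ensembl WBcel235 annotation whose symbol is 1 letter, then "ars-", then a number. There are 32 of them among 19973 protein-coding genes. They lie on chromosomes I (9), II (5), III (6), IV (8) and V (4), and none lies on X. What was measured at them was the binding of HLH-6, by chromatin immunoprecipitation and sequencing (ChIP-seq) with an anti-GFP antibody. The chromatin came from whole, sonicated hermaphrodite worms of strain RW10702 in late embryogenesis, 3.5 hours after the population had been synchronized by bleaching eggs. These worms are a transgenic line in which HLH-6 carries GFP and FLAG at its C terminus. There were 2 biological replicates of this 1 group, and worms without the tag were not analysed here. The promoter that drives the tagged protein is not given in the sources used here.

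HLH-6 belongs to the basic helix-loop-helix (bHLH) proteins, transcription factors that bind DNA as dimers at the E-box, CANNTG. It is best known from the gland cells of the pharynx, the feeding organ of the worm. Synthetases fall into class I and class II by the fold of their catalytic domain. Every cell that makes protein needs them, in the cytoplasm and, through separate genes or alternative forms of the same gene, in mitochondria. The chromatin was of whole embryos, so binding in few cells and weak binding in many cells cannot be told apart.

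Each deposited list gives genomic regions, the position of each region's summit and the authors' signal value, a score of unstated scale that is each region's own value. The optimal list, which the authors derived from both replicates, held 912 regions with signal values from 85.6 to 678 and a median of 105. The pooled list and the list of each replicate held 30000 regions each, with median signal values of 33.9 in the pooled list, 18.9 in replicate 1 and 19.5 in replicate 2. The lowest -log10 q-value was 0.119 among pooled regions and 0.0663 among those of replicate 1, so a region in a long list is a candidate and not a call. Signal values are compared only within a list. Ranks (1 is the strongest) give the place of a region within its list and are also set beside each other between lists. The lists give no read counts, so the depth is unknown and no value here has a counting interval. The promoter window of a gene covered 1000 bp before and 200 bp after each annotated transcription start site (TSS), and a gene was counted when a summit lay in it.

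The optimal list had a summit in the promoter window of 1 of the 32 synthetase genes (3.12%), and the share of all protein-coding genes was 2.50% (500 genes). That gene was ears-2, whose RefSeq product is a mitochondrial glutamyl-tRNA synthetase of class I. ears-2 (WBGene00001338) occupies chromosome IV from 388686 to 390468 on the minus strand in ce11 coordinates, which are those of WBcel235. Its region ran from 390378 to 390603, with the summit at 390504, 36 bp upstream of the TSS. The signal value was 237 in both the optimal and the pooled list, at rank 67 in each. In the list of replicate 1 the signal value was 119 at rank 64, and in that of replicate 2 it was 113 at rank 68. The summits of the replicates, at 390506 and 390501, were 5 bp apart. The next highest signal value of a synthetase gene was 64.6 in the pooled list, 30.4 in replicate 1 and 44.8 in replicate 2.

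The summit lies in a gap of 91 bp between ears-2 and its divergent neighbour uncp-18, which is transcribed the other way. uncp-18 (WBGene00020298, chromosome IV 390560 to 393158) has the RefSeq product syntaxin-binding protein 1, a family that acts in vesicle fusion. The summit is 56 bp upstream of its TSS, so the region is counted for both genes and cannot be assigned to either. The whole gap is shown because it holds the summit. It is given on the minus strand, the coding strand of ears-2, from the TSS of uncp-18 on the left to that of ears-2 on the right, in lower case because no E-box was found in it.
ears-2 gap, chrIV:390469-390559, minus strand: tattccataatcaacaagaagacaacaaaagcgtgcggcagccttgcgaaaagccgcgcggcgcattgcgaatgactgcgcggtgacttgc
The letters CANNTG, searched on both strands, occur 0 times in these 91 bp. Over the 912 optimal summits, 32.3% of windows of 91 bp held the motif. The GC content of the gap was 53.8%, and the median of the 91-bp windows around optimal summits was 52.7%.

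**Figure D1:**
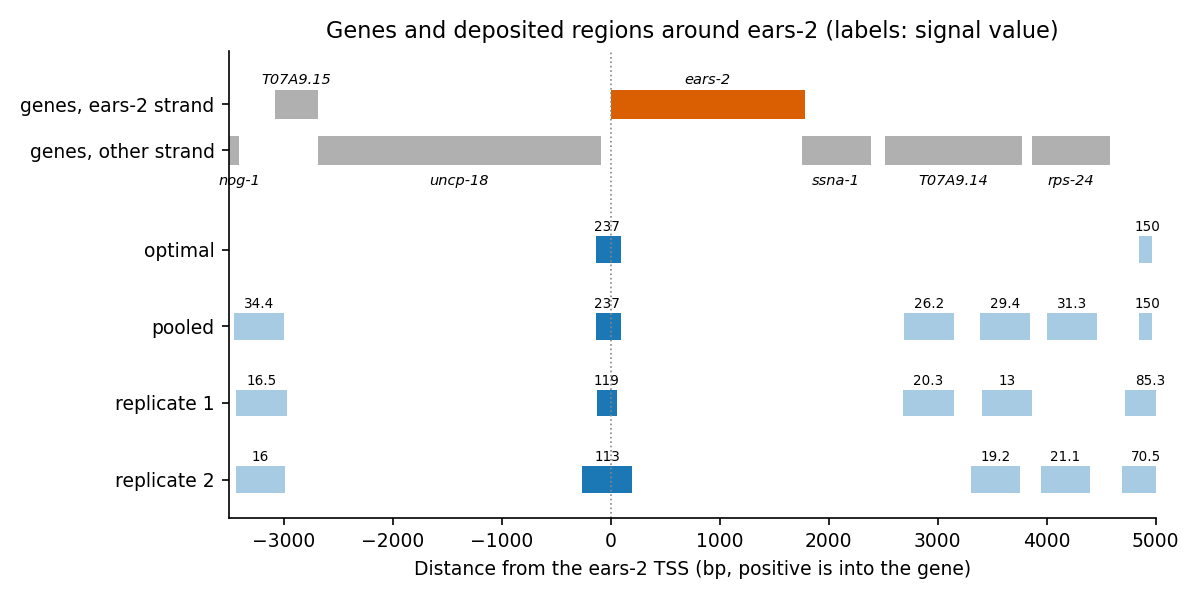
Genes and deposited regions around ears-2, by distance in bp from its TSS. Rows show coding genes on each strand and the regions of the 4 lists, labelled with their signal values; dark bars have their summit within 200 bp of the TSS. The region between ears-2 and uncp-18 stands in every list, with signal values of 237, 237, 119 and 113, and no other region has its summit inside ears-2.

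The ears-2 region was narrow, 226 bp wide in the optimal list. Of the 912 optimal regions, 55 (6.03%) were as narrow or narrower, while the median width was 460 bp over the list and 241 bp over its 100 strongest regions. In replicate 1 the region was 183 bp wide, and in replicate 2 it was 456 bp wide.

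Most regions stronger than the one at ears-2 lie at genes of short structured RNAs. Short RNA genes here are tRNA, snoRNA and snRNA genes only. Genes of microRNAs, piRNAs and other small RNAs were not counted, so a summit away from short RNA genes may still lie near one of those. Within 200 bp of a short RNA gene lay 56 of the 67 strongest optimal summits, and ears-2 was among the 11 away from one. Its nearest short RNA gene was 16901 bp from the summit, and its nearest tRNA gene 67765 bp from the TSS. Of the 407 optimal summits in a coding promoter window, 353 were away from short RNA genes, and ears-2 ranked 7th among these. It ranked 3rd of the 86 such summits that lay within 100 bp of a coding TSS. By gene, 24 coding genes had a stronger promoter summit.

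None of the other 31 synthetase genes had an optimal summit in its window. The distance from a TSS of these genes to the nearest optimal summit ranged from 1346 bp at fars-1 to 327391 bp at sars-1, with a median of 51841 bp. The optimal list ends at a signal value of 85.6 (rank 912), and every pooled region at or above that value is in it. The first pooled region outside it, at rank 913, also has a value of 85.6 to 3 digits. Going to 1824 pooled regions, double the optimal length, added no synthetase gene: 1 of 32 (3.12%) was reached, again ears-2, and 4.37% of coding genes were. At rank 3000 the pooled list had reached 3 members (9.38%) and 6.42% of coding genes. At rank 10000 it had reached 10 members (31.2%) and 16.4% of coding genes.

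**Figure D2:**
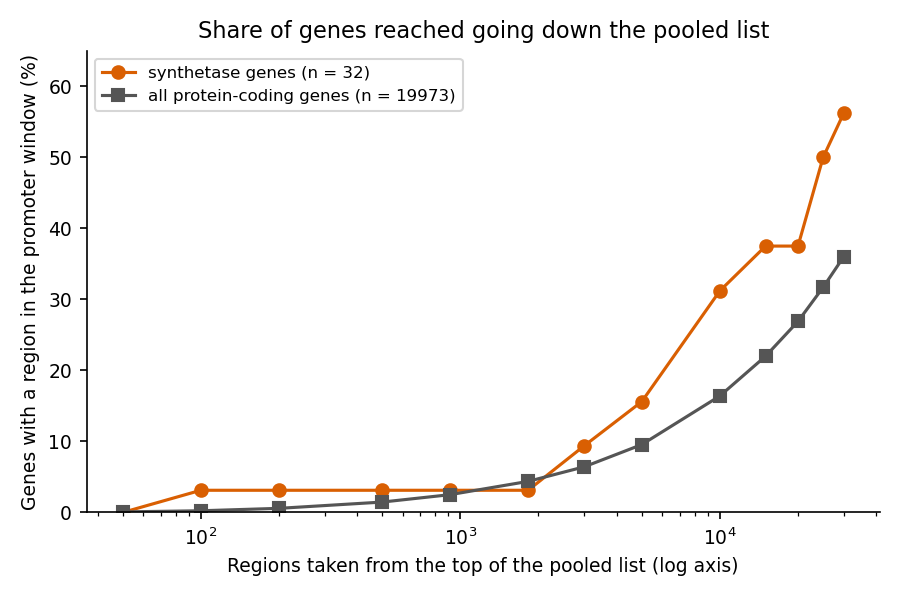
Share of genes (%) with a region in the promoter window as the pooled list is taken from its strongest region down (log axis, number of regions). The synthetase genes stay at 3.12% from 100 to 1824 regions and reach 56.2% at 30000, where all protein-coding genes reach 36.0%.

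In the whole pooled list 18 of the 32 genes (56.2%) had a region in the window, and 36.0% of all coding genes had one. The replicate 1 list reached 20 synthetase genes (62.5%; 36.8% of coding genes) and the replicate 2 list 16 (35.4% of coding genes). The 2 replicate lists both held a region for 11 genes (34.4%; 24.0% of coding genes). In 9 of these 11 genes the summits of the replicates came within 200 bp of each other (28.1% of the 32; 19.5% of coding genes). These 9 genes were aars-1, aars-2, ears-2, kars-1, mars-1, nars-1, pars-1, tars-1 and yars-2. In the other 2, pars-2 and qars-1, the closest summits were 283 and 686 bp apart. The close pair of pars-1 lay near the end of both lists, with 13.1 (rank 29330) in replicate 1 and 13.2 (rank 29433) in replicate 2. The strongest replicate summits of pars-1 were 720 bp apart. A region was found in replicate 1 alone for 9 genes and in replicate 2 alone for 5. Of all coding genes, 7341 had a region in replicate 1, 7067 in replicate 2 and 4793 in both. Whether the synthetase genes differ from them in this was not tested. Among the 11 genes with both, 7 ranked higher in replicate 1 and 4 in replicate 2. This split was not counted over all coding genes.

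The share of the synthetase genes was above the share of coding genes in each of the long lists. The median rank of the strongest region, over genes that had one, was 9228 for the 18 synthetase genes and 11469.5 for coding genes in the pooled list. In replicate 1 it was 11753 against 11777, and in replicate 2 it was 11516 against 11940. With the outermost TSS of each gene only, the order turned: the pooled median was 17021 for synthetase genes and 12108 for coding genes. The synthetase genes and coding genes also differ in their annotation. The median gene length was 3576 bp for synthetase genes and 2027 bp for coding genes. More than 1 annotated TSS was present in 19 of 32 synthetase genes and in 5475 of 19973 coding genes. With a single TSS, 5 of 13 synthetase genes (38.5%) and 30.3% of coding genes had a pooled region. With 2 or more, 13 of 19 synthetase genes (68.4%) and 51.2% of coding genes had one. What part the number of TSSs has in the higher share was not tested. The median width of all windows of a gene together was 1209.5 bp for synthetase genes and 1201 bp for coding genes. These medians do not show the wider windows of genes with TSSs far apart, which reached 4604 bp at qars-1. The search space of the synthetase genes and of coding genes was therefore not shown to be alike.

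**Figure D3:**
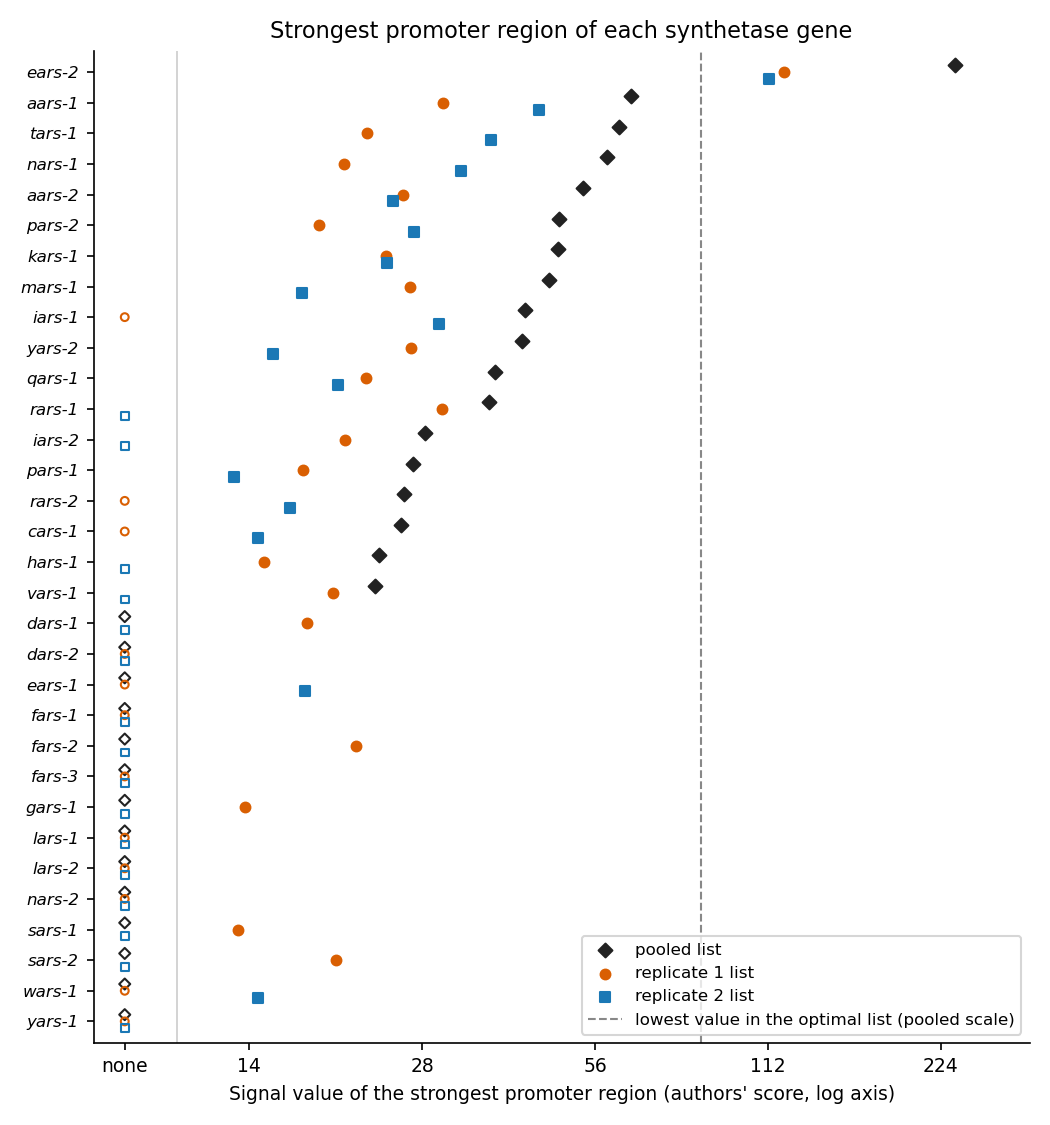
Signal value (authors' score, log axis) of the strongest promoter region of each of the 32 synthetase genes in the pooled list and in each replicate list; open symbols at "none" mean no region in that list. The dashed line is the lowest signal value of the optimal list, 85.6, which applies to the pooled values alone. ears-2, at 237, is the 1 gene to the right of it, and the next gene is at 64.6.

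Both alanine enzymes were near the top of the order. aars-1, whose product is the mitochondrial alanine enzyme, had a pooled signal value of 64.6 (rank 2536) with the summit 43 bp downstream of its TSS, in a UTR exon (chromosome II 11464224 to 11464683). Its values were 30.4 (rank 3816) in replicate 1 and 44.8 (rank 1112) in replicate 2, at summits 153 bp apart. The pooled summit also falls in the window of another coding gene. aars-2, whose product is the cytoplasmic alanine enzyme, had a pooled value of 53.3 (rank 4710) at 207 bp upstream. Its replicate values were 25.9 (rank 6536) and 24.9 (rank 8274), with summits 19 bp apart and no other coding window there.

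tars-1, which encodes the threonine enzyme, had a pooled signal value of 61.6 (rank 2963; chromosome II 11694442 to 11694901). The values were 22.4 (rank 9849) in replicate 1 and 36.9 (rank 2282) in replicate 2, with summits 5 bp apart. The summit is in an intron, 379 bp upstream of the nearest TSS of tars-1. It is closer to a TSS of another gene, kel-1, which overlaps tars-1 and is known from the pharyngeal glands. The summit is 156 bp upstream of that TSS and in an intron of kel-1 as well. That TSS is not at an end of kel-1, which runs from 11688943 to 11696059. The summit window is shown because it lies near an internal TSS of a gland gene. Capitals mark a match to the E-box.
tars-1 summit, chrII:11694622-11694722, minus strand: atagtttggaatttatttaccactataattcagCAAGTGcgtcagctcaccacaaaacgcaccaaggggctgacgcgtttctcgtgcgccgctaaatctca
It holds 1 match to CANNTG. Of the 12 synthetase genes highest in pooled rank, 6 had a match in the 101 bp around the summit: aars-1, tars-1, pars-2, iars-1, yars-2 and qars-1. That of yars-2 was CAGCTG. Of the 912 optimal summit windows of the same length, 33.6% held a match to CANNTG. Of the 12 genes ears-2 alone is in that list, so this share describes stronger regions than the others. No share was computed over weaker pooled summits.

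nars-1, the cytoplasmic asparagine enzyme, had a pooled value of 58.7 (rank 3444), 174 bp upstream of its TSS. The replicates gave 20.5 (rank 12464) and 32.8 (rank 3553), 17 bp apart. Its window shares the summit with nduf-6, a divergent gene for a subunit of respiratory complex I. In aars-1, tars-1 and nars-1 alike the rank was higher in replicate 2 than in replicate 1.

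For the proline enzyme pars-2, named as putative mitochondrial among its products, the pooled value was 48.5 (rank 6212), 553 bp upstream of a TSS and in an intron of the gene. Its replicate values, 18.5 (rank 15756) and 27.1 (rank 6507), belong to summits 283 bp apart. kars-1, the lysine enzyme, had a pooled value of 48.2 (rank 6320) at 313 bp upstream, with 24.3 (rank 8771) at the same place in replicate 2. The strongest region of replicate 1, 24.2 (rank 8000), had its summit 183 bp from it. The replicate 1 region nearest to it, 80 bp away, had 14.8 (rank 24225). No other coding window holds that summit, and its surroundings are shown as an example of a low-ranking region between genes.
kars-1 summit, chrII:7072678-7072778, minus strand: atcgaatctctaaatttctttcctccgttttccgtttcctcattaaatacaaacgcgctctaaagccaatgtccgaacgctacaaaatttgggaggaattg
No match to CANNTG was found in these 101 bp.

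mars-1, the cytoplasmic methionine enzyme, had 46.5 (rank 6979) in the pooled list, in an intron 300 bp upstream of its nearest TSS. The values of the replicates were 26.7 (rank 5980) and 17.3 (rank 19115). For yars-2, a tyrosine enzyme, the pooled value was 41.8 (rank 9387) at 27 bp downstream of a TSS, in coding sequence, with 26.8 (rank 5938) and 15.4 (rank 23362) in the replicates. qars-1, the glutamine enzyme, had 37.5 (rank 12043) at 91 bp downstream of a TSS, also in coding sequence, with 22.3 (rank 9970) and 19.98 (rank 14261) at different places in the window. In these 3 class I genes the rank was higher in replicate 1.

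iars-1 and rars-1, both cytoplasmic class I enzymes, were each found in 1 replicate. iars-1, for isoleucine, had a pooled value of 42.3 (rank 9069) and 30.0 (rank 4769) in replicate 2, with no region in replicate 1. Its summit is 768 bp upstream of its own TSS and 43 bp upstream of pges-2, a divergent gene for a prostaglandin E synthase. rars-1, for arginine, had a pooled value of 36.7 (rank 12683) and 30.4 (rank 3855) in replicate 1, with a summit at -789 bp, and no region in replicate 2. A second replicate 1 region, with 22.5 (rank 9744) and a summit at -988 bp, lies nearer to the pooled summit. The pooled summit is 969 bp upstream of the nearest TSS of rars-1 and 138 bp upstream of rpb-8, the gene before it on the same strand, which encodes a subunit of RNA polymerases. It is shown because it combines GAGAGA, a short repeat also sought here, with the letters TTGCGAA that also occur in the ears-2 gap.
rars-1 summit, chrIII:4918096-4918196, minus strand: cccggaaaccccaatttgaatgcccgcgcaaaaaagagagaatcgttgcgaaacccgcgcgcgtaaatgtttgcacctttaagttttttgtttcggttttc
There was no match to CANNTG and 1 match to GAGAGA, which 20.5% of the optimal summit windows, all of stronger regions, held.

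The other 6 genes with a pooled region ranked below 20000. Their signal values were 28.3 for iars-2 (rank 21217), 27.0 for pars-1 (22977), 26.1 for rars-2 (24255), 25.7 for cars-1 (24712), 23.5 for hars-1 (28201) and 23.2 for vars-1 (28720). These enzymes serve isoleucine, proline, arginine, cysteine, histidine and valine. The end of the pooled list is at 22.5, so the last ones lie at its edge. A further 7 genes had a region in a replicate list and none in the pooled list. dars-1, fars-2, gars-1, sars-1 and sars-2 had it in replicate 1, with signal values from 13.4 (sars-1) to 21.5 (fars-2). ears-1 (17.5) and wars-1 (14.5) had it in replicate 2. The remaining 7 genes, dars-2, fars-1, fars-3, lars-1, lars-2, nars-2 and yars-1, had no region in the window in any of the 4 lists. They include both leucine enzymes and fars-3, the beta subunit of the phenylalanine enzyme.

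Amino acids with more than 1 gene showed no common level. The glutamate pair held both extremes, with ears-2 at 237 and ears-1 without a pooled region. For alanine both genes had one, and for proline, isoleucine and arginine both did as well, with the lower member at or below 28.3. Of the tyrosine and asparagine pairs 1 gene each had a pooled region, and for leucine, aspartate, serine and phenylalanine no gene did. By class, 10 of 15 class I genes (66.7%) and 8 of 17 class II genes (47.1%) had a pooled region, while regions with summits close together in both replicates were found in 3 class I and 6 class II genes. By RefSeq product, all 4 genes named mitochondrial (aars-1, ears-2, pars-2 and rars-2) had a pooled region. So did 7 of the 10 named cytoplasmic (70.0%) and 7 of the 18 whose product names neither (38.9%). This split follows the wording of the product alone, and where the enzymes of those 18 genes act cannot be read from it. They include dars-2, fars-2, lars-2, nars-2 and sars-2, which had no pooled region, and iars-2 and yars-2, which had one. The 4 genes are therefore not all the mitochondrial enzymes that there may be. These subgroups are small and were not tested.

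Summit positions were spread over the window. The strongest pooled summit lay upstream of the nearest own TSS in 13 of the 18 genes, within 400 bp in 7 and over 500 bp away in 6. In 5 genes it lay downstream. Over coding genes 80.4% were upstream, and the median position was -279 bp, against -253.5 bp for the synthetase genes. In 7 of the 18 genes the window of another coding gene held the same summit. A divergent upstream neighbour was present in 18 of the 32 genes, and 12 of these (66.7%) had a pooled region, 8 of them with replicate summits close together. Of the 14 genes whose upstream neighbour is on the same strand, 6 (42.9%) had a pooled region and 1 had such summits in both replicates. Over all coding genes, 39.4% of those with a divergent neighbour and 33.2% of those with a same-strand neighbour had a pooled region, and 22.4% and 17.1% had close replicate summits. Whether the synthetase genes differ from coding genes in this contrast was not tested. The pooled regions of aars-2 and nars-1 run from 3982746 to 3983205 and from 7090006 to 7090465 on chromosome I. In 8 of the windows there were 2 pooled regions, which brings the total to 26.

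**Figure D4:**
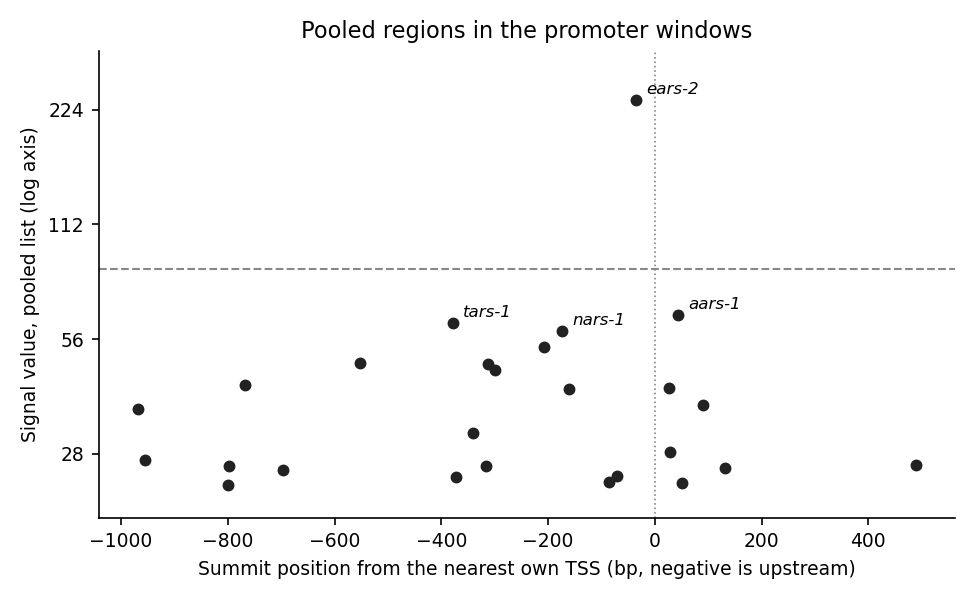
Position of all 26 pooled regions in the windows of synthetase genes, as bp from the nearest own TSS (x axis, negative is upstream), against signal value (y axis, log). The dashed line marks the lowest optimal value of 85.6; ears-2 is the 1 point above it, 36 bp upstream, and the others are spread over both sides of the TSS.

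In the promoter window, no synthetase gene had its strongest pooled summit within 200 bp of a short RNA gene. Of coding genes with a pooled region in the window, 2.18% did. The closest was nars-1 at 1348 bp and the farthest hars-1 at 224276 bp. For tRNA genes, whose products these enzymes charge, the distance from a TSS to the nearest one was lowest at dars-2, 46485 bp. The median over the 32 genes was 184426 bp. No such distance was computed over all coding genes.

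Regions inside the genes but outside the promoter window were found in the pooled list for 19 synthetase genes (59.4%), and for 40.5% of all coding genes, which are shorter. In 13 genes (40.6%; 30.5% of coding genes) there was a region in the body and none as strong in the window. Of these, 9 had no pooled region in the window at all, and cars-1, iars-2, mars-1 and vars-1 had a weaker one. The strongest was in an intron of fars-1, an enzyme for phenylalanine, and it is the 1 optimal region in the body of a synthetase gene. It ran from 6212749 to 6212941 on chromosome I (193 bp wide), with a signal value of 171 at rank 126, and 77.6 (rank 171) and 93.2 (rank 103) in the replicates. Its summit at 6212870 is 46 bp from the snoRNA gene T08B2.13. It also falls in the window of mrpl-23, a mitochondrial ribosomal protein gene, 985 bp upstream of that TSS. After fars-1 came wars-1 (64.0, rank 2626), mars-1 (61.7, rank 2959), nars-2 (58.1, rank 3582) and cars-1 (54.9, rank 4280). These 4 summits were all in coding sequence. wars-1 and nars-2 had none in the pooled list near a TSS.

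E-boxes were counted in the 300 bp from 250 before to 50 after the outermost TSS, on either strand. CANNTG occurred in 17 of the 32 synthetase promoters (53.1%) and in 69.4% of the 19941 promoters of other coding genes. Outside chromosome I the shares were closer, with 15 of 23 (65.2%) and 69.8% of 17072. CAGCTG, one form of CANNTG, occurred in 0 of 32 and in 5.56%. CAGGTG, another form, which is CACCTG on the other strand, occurred in 3 of 32 (9.38%) and in 8.48%. GAGAGA occurred in 7 (21.9%) and in 21.8%. These shares were not tested.

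Other genes of protein synthesis and turnover were counted in the same way. Of 78 cytosolic ribosomal protein genes, 6 had an optimal summit (7.69%), 59 a pooled region (75.6%) and 44 close summits in both replicates (56.4%). For 70 mitochondrial ribosomal protein genes the counts were 3 (4.29%), 37 (52.9%) and 16 (22.9%). For 39 translation factors they were 2 (5.13%), 26 (66.7%) and 15 (38.5%). The 33 proteasome genes gave 1 (3.03%), 23 (69.7%) and 10 (30.3%), and the 17 tRNA modification and processing genes gave 1 (5.88%), 12 (70.6%) and 5 (29.4%). The synthetase genes, at 3.12%, 56.2% and 28.1%, were within the range of these lists in all 3 counts. The highest optimal signal values in the lists were 181 for rpl-3 and 172 for rps-24 (cytosolic ribosomal proteins) and 171 for mrpl-23, which is the region in the fars-1 intron. The others reached 105 for mrps-35 and rpn-7 (a proteasome subunit), 96.8 for eif-2Bgamma, 93.6 for iff-2 and 117 for elpc-4 (an Elongator subunit). All are below the 237 of ears-2.

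**Figure D5:**
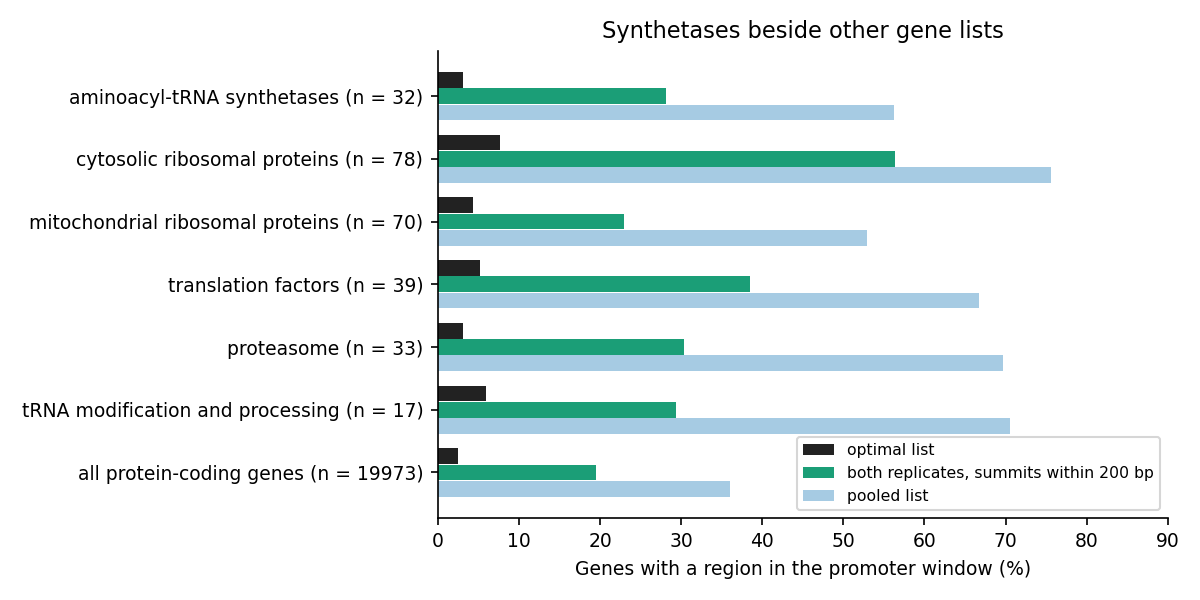
Share of genes (%) with a region in the promoter window in the optimal list, in both replicate lists with summits within 200 bp, and in the pooled list, for the synthetase genes, 5 other gene lists and all protein-coding genes. The synthetase bars stand at 3.12%, 28.1% and 56.2%, and those of all protein-coding genes at 2.50%, 19.5% and 36.0%.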

How the data were processed

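HLH-6-GFP chromatin of whole late embryos was sequenced in 2 biological replicates of 1 group, per the labels. The authors deposited region lists for ce11. According to their README texts, a replicate list was called from the alignments of that replicate with a control, and the pooled list from both replicates and a control. The optimal list was derived from these by IDR, which scores how alike regions rank in both replicates. Its 912 regions are the 912 strongest of the pooled list, so a region there need not rank alike in both replicates. Not given in the sources used here: aligner, peak caller and IDR threshold. The deposited signal value is a score of unstated scale, and the deposited -log10 q-value is the authors' own. Lists on ce10 were not used here. No column was left out (0 without a matching sample). Depth per sample is unknown.

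Regions were ranked by signal value and summits set against Ensembl release 115 and the NCBI WBcel235 genome with Python 3.11.15, numpy 2.4.6 and pandas 2.3.3, with promoter windows of 1000 bp before and 200 bp after each TSS. Sequences are from that NCBI RefSeq genome, and products from its annotation. Window counting was tested on simulated regions. All members were named, with full values for the optimal gene and those next in pooled rank, up to 12. No test across groups was possible, and counts stand beside those over all coding genes. Members, lists and most alternatives were chosen with earlier results of these data known. Of the tRNA modification and processing symbols sought, 17 of 20 were found. The replicates are separate samples per the labels. The closing section gives the alternatives: window size, region overlap, outermost TSS, short RNA genes left out, stricter lists and single replicates.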

Additional observations from a re-analysis of the deposited data

How the results depend on the processing

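ears-2 was the 1 synthetase gene with an optimal summit under all alternatives run for that count: both other windows, overlap of at least 1 bp, the outermost TSS, short RNA genes left out, the stronger part of the list (above its median), the 912 strongest regions of either replicate, and RefSeq symbols. The narrower window, the outermost TSS, short RNA genes left out and the stronger part of the list could only remove genes. They could not remove ears-2, with its single TSS, rank 67, summit 36 bp upstream and nearest short RNA gene 16901 bp away. Those settings are therefore no measure of stability. Of 39 values computed under alternatives, 29 stayed within their limits and 10 moved. For a count the limit was a fixed ratio to its main value, wide enough that 14 or 21 against 18 stayed within it. For the median rank it was 168, the SD of the 2 replicates' median ranks. The limits are thus unlike in width, and the tally of 29 is no measure of stability. The number of genes with a region in both replicate lists was 11, and became 20 with a window from 2000 bp upstream to 500 bp downstream. It became 7 with the outermost TSS and 7 with the stronger part of each replicate list (above its median). The share of coding genes with a region in both lists was 24.0% with the main window and is not given for these settings. Whether all coding genes change alike under them was not tested. The median pooled rank of 9228 became 8183 with a window of 500 to 100 bp, 10715 with overlap and 17021 with the outermost TSS, where the medians of coding genes were 11310, 11332 and 12108. With 1 replicate left out it ranged from 11516 to 11753. The pooled count of 18 ranged from 14 to 21 over windows (43.8% against 23.4% of coding genes, and 65.6% against 53.0%). It ranged from 16 to 20 with 1 replicate left out (35.4% and 36.8% of coding genes). It was 1, ears-2, with a -log10 q-value of at least 2, a setting for which no share of coding genes is given. Among the 1824 strongest regions the count of 1 ranged from 1 to 2: without replicate 1, the replicate 2 list alone also reached aars-1. Close replicate summits (9 genes) and RefSeq symbols (18 of 33 genes in the pooled list) were added after seeing the data. The cause of these moves was not tested, beyond the fewer or more positions each setting counts. No paired analysis was possible because there is a single group. Unknown depth, the unstated signal scale, 2 replicates and the lack of an untagged control here limit every count, and a gene without a region may lie below what the lists reach.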

Other observations

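glp-4 is not a member by its symbol, and its RefSeq product is a valine--tRNA ligase. It had no optimal summit. Its pooled signal value was 44.7 (rank 7829) with the summit 41 bp downstream of its TSS, and its replicate values were 17.4 (rank 17982) and 27.5 (rank 6284). vars-1, the member for valine, had 23.2 (rank 28720) in the pooled list and no region in replicate 2. The gene that RefSeq names mars-2 is called Y105E8A.20 in the Ensembl annotation, lies 109 bp upstream of yars-1 on the same strand, and had no region in any of the 4 lists.

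The letters TTGCGAA, searched on both strands, were chosen after the ears-2 gap had been read and occur 2 times in it. They occurred in 2.52% of the 91-bp windows around the 912 optimal summits (23 windows). In the 300-bp promoters they occurred in 5 of 32 synthetase genes (15.6%), ears-2 being 1 of these, and in 5.25% of 19941 other promoters. No test was made on a motif chosen in this way.

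The ears-2 map holds a further optimal region, 4923 bp from the ears-2 TSS beyond its 3' end, with a signal value of 150 (85.3 in replicate 1, 70.5 in replicate 2). It lies before rps-24, a cytosolic ribosomal protein gene, whose strongest optimal promoter summit has a signal value of 172.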
